A study of Homo sapiens with 12 samples.

Results

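The histone genes were taken as every gene measured by a probe set of that gene alone whose symbol, past or present, begins with one of the histone prefixes (HIST or, in current naming, H1-, H2AC, H2BC, H3C, H4C, H2AZ and H3-3, with the older H1F, H2AF and H3F). This gave 58 of the 19775 genes on the array and 82 probe sets. Of these, 4 were non-coding transcripts or pseudogenes (H1-10-AS1, H1-9P, H4C10P and H2AC5P) and were set apart, and none of the 4 passed limma's test in either knockdown, nor had an unadjusted p under 0.05 there. The remaining 54 coding genes fell into 44 replication-type genes and 10 variant genes. A gene was represented by its brightest probe set over the 12 arrays and was tested when at least 3 of 12 arrays reached a log2 signal of 5. H2BC1 and H3C7 did not reach that level, which left 52 coding genes tested, 42 replication-type and 10 variant. A further 29 probe sets matched several genes at once, among them a histone gene, and were not used.

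The cells were A549, an established human lung cancer line. In 1 experiment they received a FAM60A siRNA or a non-targeting siRNA, and in the other an SDS3 siRNA or a non-targeting siRNA, each with 3 samples a group, at 50 nM, with RNA taken 3 days after transfection. All 12 samples were therefore transfected, no untransfected cells were analysed here, and each knockdown was read against its own controls only. The treatment protocol names a single FAM60A siRNA and no SDS3 siRNA by catalogue number, and wells were plated in triplicate with no separate cultures named, so the p-values cover only how these samples vary, and that variation may be technical. FAM60A (current symbol SINHCAF) and SDS3 (SUDS3) are subunits of the SIN3-HDAC complex, a corepressor that brings histone deacetylases to promoters.

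Replication-type histone genes supply the histones that package newly copied DNA. Their mRNAs mostly end in a conserved stem-loop in place of a poly(A) tail and are abundant in S phase, and several of the genes can also give polyadenylated mRNA. Variant histone genes are transcribed outside S phase as well, carry introns more often and mostly give mRNAs with poly(A) tails. Their proteins replace the standard histones at particular places in chromatin. The labelling kit named in the labels primes on poly(A) tails, so these arrays favour polyadenylated histone RNA, and a change in the total and a change in the polyadenylated share of a gene's RNA cannot be told apart. Replication-type genes of a family are close copies of each other, and probe sets with names ending in _s_at or _x_at can read several of them, so the values of such genes are uncertain in their source.

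The 6 arrays of the FAM60A experiment had median linear signals between 186 and 192.6, and the 6 of the SDS3 experiment between 96.8 and 98.3. Levels are therefore not compared between experiments. No array held the same values as another. FAM60A siRNA left 15.5% of the SINHCAF control signal (log2 change -2.69 ± 0.08, SE, limma adjusted p 7.76e-09), and SDS3 siRNA left 33.4% of the SUDS3 signal (log2 change -1.58 ± 0.08, SE). All 6 markers of a lung epithelial line (KRT8, KRT18, KRT19, EPCAM, CDH1, MUC1) lay above the array median in each of the 4 groups. Of other cell types, immune markers lay above it for 2 of 3 genes and endothelial markers for 2 of 3 in every group, neuron markers for 2 of 2, and fibroblast markers for 2 and then 1 of 3 in the FAM60A experiment and for 1 and then 0 of 3 in the SDS3 experiment. Their part in the histone results was not tested.

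The upstream sequences below belong to the 4 replication-type genes with the largest rises after FAM60A knockdown. They are the 250 bases before the annotated start in RefSeq (GRCh38.p14), written 5′ to 3′ on the gene's own strand, and capitals mark each match, on either strand, to 4 motifs known from histone promoters. These are the TATA box (TATAAA), the CCAAT box (CCAAT), the octamer of H2B promoters (ATTTGCAT) and the H1 box (AAACACA), which do not share letters with each other where they were marked. H1-2 (chr6:26056471-26056720, minus strand) encodes a linker histone, H2BC21 (chr1:149886683-149886932, minus strand) an H2B, H4C8 (chr6:26285535-26285784, minus strand) an H4 and H2AC6 (chr6:26123922-26124171, plus strand) an H2A.

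H1-2: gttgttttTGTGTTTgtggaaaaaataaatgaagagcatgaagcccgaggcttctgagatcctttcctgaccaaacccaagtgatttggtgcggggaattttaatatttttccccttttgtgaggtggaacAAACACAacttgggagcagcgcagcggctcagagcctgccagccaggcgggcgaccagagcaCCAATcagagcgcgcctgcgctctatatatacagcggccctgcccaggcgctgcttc

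H2BC21: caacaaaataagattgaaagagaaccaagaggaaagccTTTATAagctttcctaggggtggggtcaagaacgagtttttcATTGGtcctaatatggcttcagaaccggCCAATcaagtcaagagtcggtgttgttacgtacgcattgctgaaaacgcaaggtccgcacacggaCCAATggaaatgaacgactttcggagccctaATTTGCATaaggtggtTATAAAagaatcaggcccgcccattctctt

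H4C8: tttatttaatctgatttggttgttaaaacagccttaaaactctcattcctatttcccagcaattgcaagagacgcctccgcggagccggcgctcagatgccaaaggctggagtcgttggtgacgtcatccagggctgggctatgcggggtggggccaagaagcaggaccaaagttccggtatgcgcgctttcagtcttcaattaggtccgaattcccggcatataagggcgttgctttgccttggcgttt

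H2AC6: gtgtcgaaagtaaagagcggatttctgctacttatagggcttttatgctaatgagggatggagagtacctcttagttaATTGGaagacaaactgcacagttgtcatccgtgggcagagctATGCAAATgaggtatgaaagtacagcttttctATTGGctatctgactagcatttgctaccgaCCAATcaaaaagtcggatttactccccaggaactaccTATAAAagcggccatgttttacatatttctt

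The H2AC6 window is at the same time almost the whole upstream region of H2BC4, which starts 245 bases away and runs in the opposite direction, and both genes of this divergent pair rose after FAM60A knockdown. In the H2AC6 window the TATA box starts 31 bases before the start and the octamer, on the reverse strand, 130 bases before it. The H2BC21 window holds the octamer 46 bases and a TATA box 30 bases before the start, and the H1-2 window holds H1 boxes 119 and 242 bases before the start. The H4C8 window holds none of the 4 motifs as spelled here.

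Over the histone genes, 51 of 54 coding members had at least 1 such window, 59 windows in all, and the same search was made in all 35116 windows of the table. The octamer stood in 17 of 44 windows of replication-type genes (38.6%), in 0 of 15 windows of variant genes and in 1.63% of all windows. It stood in 11 of 15 windows of H2B genes (73.3%) and in 0 of 6 of H1 genes. The H1 box stood in 6 of 6 windows of replication-type H1 genes, in 2 of 15 of variant genes and in 4.82% of all windows. A TATA box stood in 68.2% of replication-type windows, 20% of variant windows and 10.7% of all windows, and a CCAAT box in 88.6%, 66.7% and 32%. The motifs differed in share between families and classes. The H1 box stood in 6 of 44 replication-type windows, all of them windows of H1 genes. It did not separate the classes, at 13.6% of all replication-type windows and 13.3% of variant windows. These matches say nothing about the use of a motif in these cells.

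After FAM60A knockdown, most replication-type genes that passed rose, and the variant genes that passed fell. Of the 42 replication-type genes tested, 11 rose and 4 fell, with a median log2 change of 0.08, and of the 10 variant genes 0 rose and 5 fell, with a median of -0.17. The median over all 18621 genes tested was -0.02. At the same threshold, an adjusted p of limma under 0.05, 19.2% of all genes rose and 17.6% fell, and 11 of 42 and 5 of 10 are read against those shares. The classes differed in level. The median log2 signal in FAM60A controls was 12.54 for variant genes and 7.44 for all 44 replication-type genes. In SDS3 controls these medians were 11.54 and 6.36. Shares of all genes at such levels were not counted. By their brightest probe sets, all 10 variant genes had a negative log2 change, from -0.33 to -0.002, including the 5 that did not pass. Other probe sets of MACROH2A1 and H2AJ went the other way: 214500_at of MACROH2A1 rose by 0.83, and 220936_s_at and 228213_at of H2AJ changed by 0.22 and 0.17 without passing. The replication-type median became 0.03 with quantile normalization of all 12 arrays and 0.05 without control 3, and the variant median -0.11 with the mean of a gene's probe sets.

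By family, the rises were spread over 5 of 13 H2B genes, 2 of 8 H2A genes, 2 of 6 H1 genes, 1 of 8 H4 genes and 1 of 7 H3 genes. The 4 falls were all H3 genes. The median log2 change was 0.12 for H2B, 0.11 for H4, 0.07 for H1, -0.01 for H2A and -0.21 for H3. No H1, H2A, H2B or H4 gene passed as lower in limma, and none had a negative change with an unadjusted p under 0.05.

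**Figure D1:**
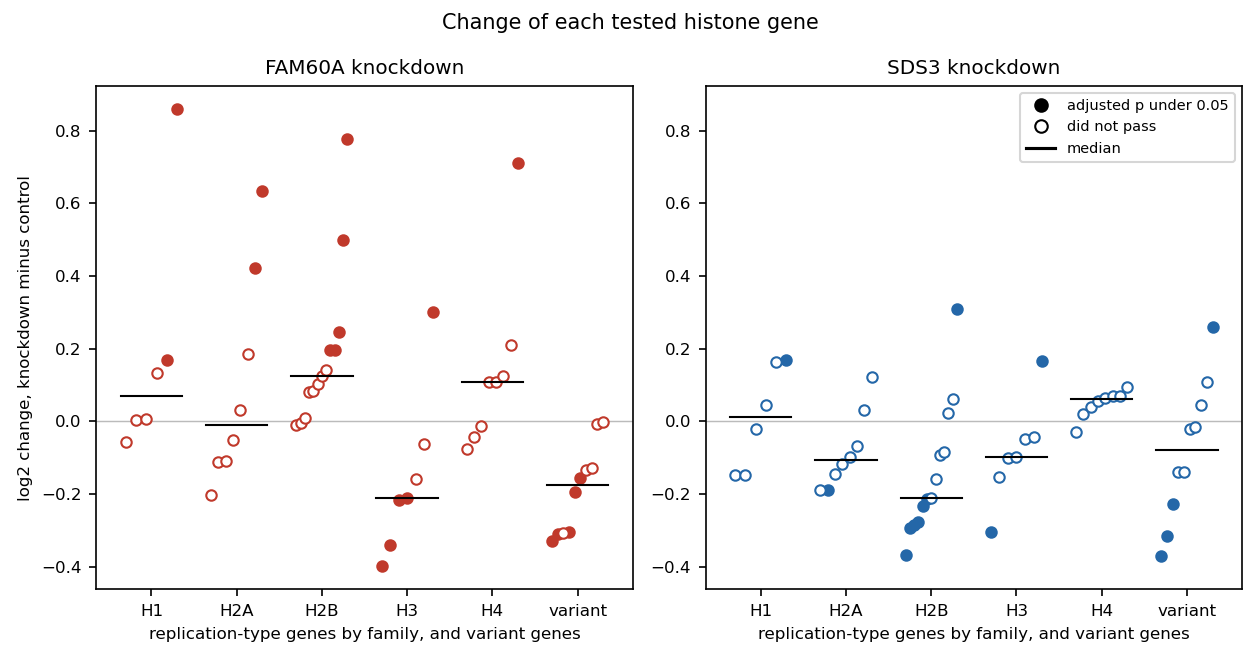
Log2 change (knockdown minus control, n = 3 a group) of each tested histone gene in the FAM60A and the SDS3 knockdown, for replication-type genes by family and for variant genes; filled points passed at an adjusted p under 0.05 and lines are medians. In the FAM60A knockdown the H2B median is 0.12 and the variant median -0.17, and in the SDS3 knockdown the H2B median is -0.21.

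H1-2, the gene of a common somatic linker histone, rose most. Its log2 signal was 9.71, 9.94 and 9.79 in the FAM60A controls and 10.59, 10.81 and 10.61 in the knockdown samples, a change of 0.86 ± 0.08 (SE, limma adjusted p 1.03e-05) or 1.82-fold. Every knockdown array lay above every control array. H2BC21, an H2B gene of the chromosome 1 cluster, went from 8.68, 8.65 and 8.68 to 9.23, 9.78 and 9.33, a change of 0.78 ± 0.12 (SE, limma adjusted p 0.000323) or 1.71-fold. H2BC21 was measured by an _s_at probe set, which can read several genes. The second knockdown array was the highest, and the change without it was 0.61, still past the threshold.

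H4C8, 1 of many genes for the same H4 protein, read 8.07, 8.01 and 8.01 in controls and 8.81, 8.76 and 8.65 in knockdown samples, a change of 0.71 ± 0.06 (SE, limma adjusted p 5.98e-06). Its other probe set, 208180_s_at, changed by 0.72 ± 0.11. H2AC6, which encodes an H2A, read 10.10, 10.22 and 10.07 in controls and 10.75, 10.79 and 10.75 in knockdown samples, a change of 0.63 ± 0.06 (SE, limma adjusted p 1.18e-05). The probe set of H2AC6 was an _s_at one, which can read several genes. The knockdown arrays of both genes lay clear of their controls.

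H2BC4, the divergent neighbour of H2AC6, read 6.94, 6.61 and 6.71 in controls and 6.98, 7.38 and 7.40 in knockdown samples, a change of 0.50 ± 0.12 (SE, limma adjusted p 0.00579). Its first knockdown array lay just above the highest control. H2AC25, an H2A gene outside the chromosome 6 cluster, read 9.33, 9.51 and 9.45 in controls and 9.87, 9.95 and 9.75 in knockdown samples, a change of 0.42 ± 0.07 (SE, limma adjusted p 0.000706). The other probe set of H2AC25, 231681_x_at, changed by -0.06 ± 0.06 and did not pass.

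**Figure D2:**
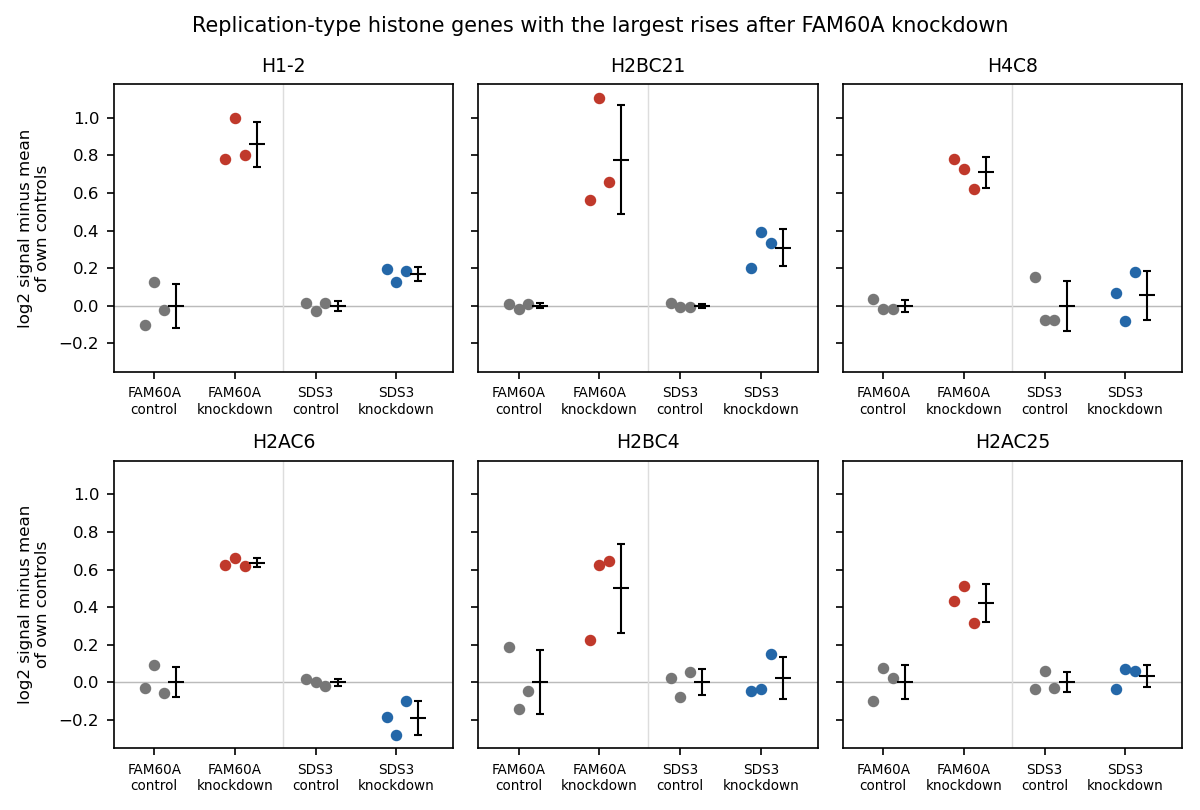
Log2 signal of each array minus the mean of its own controls for the 6 histone genes with the largest passing rises after FAM60A knockdown, 3 arrays a group; bars are the mean ± SD. All FAM60A knockdown points lie above their controls, while in the SDS3 knockdown H4C8, H2BC4 and H2AC25 overlap their controls and H2AC6 lies below them.

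Another 5 replication-type genes passed with smaller rises. H3C6, a gene for canonical H3, changed by 0.30 ± 0.07 (limma adjusted p 0.00703), and its other probe set, 236278_at, by 0.59 ± 0.10. H2BC3 changed by 0.25, H2BC12 and H2BC12L each by 0.20 and H1-5 by 0.17. Of these, H2BC12L was measured by an _x_at probe set. The calls of H2BC12, H2BC12L and H1-5 were lost when single arrays were left out. H2BC12 failed without control 3 or knockdown 2 (adjusted p up to 0.0594), H2BC12L without control 1, control 3, knockdown 1 or knockdown 2 (up to 0.167), and H1-5 when any array other than knockdown 1 was left out (up to 0.156).

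The H3 genes that fell were H3C11, H3-4, H3C3 and H3C8. H3C8 was measured by an _x_at probe set, which can read several genes. H3C11, a canonical H3 gene, read 5.92, 6.05 and 5.68 in controls and 5.42, 5.52 and 5.52 in knockdown samples, a change of -0.40 ± 0.09 (SE, limma adjusted p 0.00391). H3-4, known as a testis H3 gene and counted here by its HIST name, read 7.26, 7.28 and 7.25 in controls and 6.99, 7.06 and 6.72 in knockdown samples, a change of -0.34 ± 0.08 (SE, limma adjusted p 0.00744). H3C3 read 7.81, 7.99 and 7.78 and then 7.64, 7.68 and 7.61, a change of -0.22 ± 0.07 (SE, limma adjusted p 0.0255). The groups did not overlap for any of the 4. The calls of H3C3 (adjusted p up to 0.0778 without control 2, knockdown 1 or knockdown 3) and of H3C8 (up to 0.1 without control 1, control 2, knockdown 2 or knockdown 3) depended on single arrays, and without knockdown 3 the count of coding histone genes that fell went from 9 to 5.

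Among variant genes, H2AX and both H2A.Z genes fell. H2AX, whose product is phosphorylated around DNA breaks, read 12.52, 12.57 and 12.56 in controls and 12.29, 12.19 and 12.24 in knockdown samples, a change of -0.31 ± 0.06 (SE, limma adjusted p 0.00116). H2AZ1, one of a pair of genes for H2A.Z, which sits at promoters, read 14.57, 14.56 and 14.60 and then 14.31, 14.30 and 14.20, a change of -0.30 ± 0.06 (SE, limma adjusted p 0.00147). H2AZ2, the other H2A.Z gene, read 12.78, 12.62 and 12.68 and then 12.51, 12.32 and 12.27, a change of -0.33 ± 0.07 (SE, limma adjusted p 0.0048). No knockdown array of these genes reached the level of a control array. These calls held with any single array left out. Another probe set passed as lower for each gene, with changes of -0.31 for H2AX (212525_s_at), -0.24 for H2AZ1 (200853_at) and -0.22 for H2AZ2 (212206_s_at). Their remaining probe sets did not pass: 212524_x_at and 213344_s_at of H2AX changed by -0.07 and -0.17, and 202487_s_at and 227085_at of H2AZ2 by -0.11 and 0.10.

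H2AJ, an H2A gene transcribed outside S phase, changed by -0.19 ± 0.06 (limma adjusted p 0.0322), and MACROH2A2, 1 of 2 macroH2A genes whose product carries a large extra domain, by -0.16 ± 0.05 (limma adjusted p 0.0445). Neither call was firm. H2AJ failed when any array other than control 3 was left out (adjusted p up to 0.0901), and MACROH2A2 failed without each of the 6 arrays (0.0585 to 0.161). The 5 variant genes that did not pass were MACROH2A1 at -0.13 ± 0.05, the H3.3 gene H3-3A at -0.31 ± 0.13, the linker histone gene H1-10 at -0.002 ± 0.05, and the germ cell linker histone genes H1-7 at -0.13 ± 0.07 and H1-8 at -0.007 ± 0.06. H3-3A varied among controls, at 7.70, 8.21 and 7.63, and its groups overlapped.

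After SDS3 knockdown, more histone genes fell than rose in both classes. Of the 42 replication-type genes 3 rose and 8 fell, with a median log2 change of -0.08, and of the 10 variant genes 1 rose and 3 fell, with a median also of -0.08. The median over all genes tested was 0.006, and 15.8% of all genes rose and 18.8% fell, so the replication-type falls lie near the share of all genes. The replication-type median became -0.29 with the arrays scaled on control probe sets and -0.05 without knockdown 1. The variant median became -0.30 with that scaling. It was 0.02 with probe sets of shared sequence left out for those genes that also had one of unshared sequence. It was -0.14 with the level filter at log2 7, -0.04 with the mean of a gene's probe sets and -0.05 with array weights. With an array left out it ran from -0.12 without knockdown 2 to -0.02 without knockdown 3, with -0.05 without control 3. In the H2B family 6 of 13 genes fell and 1 rose, with a family median of -0.21. Of the 6 that fell, H2BC5, H2BC6 and H2BC9 were read by _x_at probe sets, which can read several H2B genes, so these may not be separate readings. H2BC17 lay under log2 5 in all SDS3 arrays. No H4 gene passed in limma, nor had an unadjusted p under 0.05, 1 of 8 H2A genes fell, 1 of 6 H1 genes rose, and 1 of 7 H3 genes rose and 1 fell.

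The direction of small SDS3 changes depended on how the arrays were scaled. The mean log2 signal of 21 bacterial control probe sets was 10.3 in SDS3 controls and 10.5 in SDS3 knockdown samples, a difference of 0.22, against 0.03 in the FAM60A experiment. With each array scaled on these probe sets, the median change of all genes in the SDS3 knockdown shifted by -0.22. The coding histone genes split into 0 rises and 28 falls, against 4 and 11 as deposited, while all genes split into 850 rises (4.56%) and 7155 falls (38.4%). In the FAM60A knockdown the same scaling shifted the median by -0.03, gave 1928 rises (10.3%) and 1815 falls (9.74%) over 18630 genes, and left 6 histone rises, those of H1-2, H2BC21, H4C8, H2AC6, H2BC4 and H2AC25. Under it, 6 replication-type genes rose and 2 fell after FAM60A knockdown and 0 rose and 23 fell after SDS3 knockdown, and of the variant genes 0 rose and 4 fell after FAM60A and 0 rose and 5 fell after SDS3 knockdown. SDS3 changes are given here relative to the middle of all genes as the authors normalized them.

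Of the H2B genes that fell after SDS3 knockdown, H2BC17 read 4.25, 4.29 and 4.53 in controls and 3.90, 4.05 and 4.01 in knockdown samples, a change of -0.37 ± 0.08 (SE, limma adjusted p 0.00853). All 6 of those values lie under the log2 level of 5, and the gene entered the test through the FAM60A arrays. H2BC5 read 11.14, 11.002 and 10.95 and then 10.77, 10.69 and 10.75, a change of -0.29 ± 0.06 (SE, limma adjusted p 0.00665), and its other probe set changed by -0.25. H2BC3 read 7.26, 7.37 and 7.31 and then 7.01, 7.04 and 7.05, a change of -0.28 ± 0.05 (SE, limma adjusted p 0.00291). Every knockdown array of the 3 genes lay below its controls. The other H2B falls were H2BC11 at -0.28, H2BC6 at -0.23 and H2BC9 at -0.21. H2BC6 failed without control 1, control 2 or knockdown 2 (adjusted p up to 0.0626), and H2BC9 when any array other than knockdown 1 was left out (up to 0.103).

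Outside the H2B family, H3C2, a canonical H3 gene, read 6.00, 6.15 and 6.03 in SDS3 controls and 5.77, 5.82 and 5.69 in knockdown samples, a change of -0.30 ± 0.06 (SE, limma adjusted p 0.00489) with no overlap. H3C2 was measured by an _s_at probe set, which can read several genes. H2AC6, which rose after FAM60A knockdown, read 10.05, 10.03 and 10.02 and then 9.85, 9.75 and 9.93, a change of -0.19 ± 0.06 (SE, limma adjusted p 0.0365). This fall failed when any array other than knockdown 3 was left out (adjusted p up to 0.116). Its divergent neighbour H2BC4 changed by 0.02 ± 0.07 in the same arrays.

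H2BC21 rose in the SDS3 knockdown as well, from 7.81, 7.79 and 7.79 to 7.997, 8.19 and 8.13, a change of 0.31 ± 0.06 (SE, limma adjusted p 0.00411), and this call held with any single array left out. H1-2 went from 10.05, 10.00 and 10.04 to 10.23, 10.16 and 10.21, a change of 0.17 ± 0.05 (SE, limma adjusted p 0.0279). H3C6 went from 6.84, 6.78 and 6.88 to 6.99, 6.94 and 7.06, a change of 0.17 ± 0.06 (SE, limma adjusted p 0.0481). Groups did not overlap in these genes, but the H1-2 call failed without control 2, control 3, knockdown 1 or knockdown 3 (adjusted p up to 0.1) and the H3C6 call without each of the 6 arrays (0.0528 to 0.16). With the arrays scaled on the bacterial control probe sets, none of the SDS3 rises passed, at 0.09 for H2BC21, -0.048 for H1-2, -0.053 for H3C6 and 0.04 for H1-7.

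Among variant genes, H2AJ read 12.63, 12.69 and 12.55 in SDS3 controls and 12.24, 12.29 and 12.24 in knockdown samples, a change of -0.37 ± 0.05 (SE, limma adjusted p 0.000947). MACROH2A1, the gene of the main macroH2A, read 12.77, 12.78 and 12.84 and then 12.48, 12.50 and 12.47, a change of -0.32 ± 0.05 (SE, limma adjusted p 0.00114). Both genes kept these calls with any single array left out, and their groups stood apart. H1-10 changed by -0.23 ± 0.06 (limma adjusted p 0.0131) and failed only without control 2 (0.0559). H1-7, a testis linker histone gene, read 7.06, 6.85 and 7.01 and then 7.29, 7.25 and 7.15, a change of 0.26 ± 0.07 (SE, limma adjusted p 0.0186), and failed without control 2, knockdown 1 or knockdown 2 (up to 0.0703). Its 2 other probe sets changed by -0.02 and -0.10 and did not pass. The genes that did not pass were H2AX at -0.14 ± 0.06, H2AZ1 at -0.14 ± 0.06, H2AZ2 at 0.11 ± 0.05, MACROH2A2 at 0.05 ± 0.05, H3-3A at -0.01 ± 0.09 and H1-8 at -0.02 ± 0.09.

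Probe sets of 1 gene did not always move together. Beyond the brightest probe sets, 24 further probe sets of 12 coding histone genes were on the array and 23 passed the level filter. In a fit of all 37388 probe sets, 3 of the 23 rose and 4 fell after FAM60A knockdown, where 17% of all probe sets rose and 14.3% fell. After SDS3 knockdown 2 rose and 5 fell, where 12.8% of all probe sets rose and 15.7% fell.

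MACROH2A1 and H2AJ showed the widest disagreement. The MACROH2A1 probe set 214500_at read 9.14, 8.96 and 9.004 in FAM60A controls and 9.79, 9.90 and 9.89 in knockdown samples, a change of 0.83 ± 0.07 (SE, limma adjusted p 1.09e-05 over all probe sets). In the SDS3 experiment it read 8.51, 8.76 and 8.76 and then 9.09, 9.03 and 9.19, a change of 0.43 ± 0.08 (SE, limma adjusted p 0.00477). It rose in both knockdowns, while the brightest probe set of the gene, 207168_s_at, and 214501_s_at changed by -0.32 and -0.36 in the SDS3 knockdown. MACROH2A1 is known to give alternatively spliced mRNAs, and which of them each probe set reads was not tested. For H2AJ, both _x_at probe sets changed by -0.37 in the SDS3 knockdown while 228213_at changed by 0.30 ± 0.07 (SE, limma adjusted p 0.0145).

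**Figure D3:**
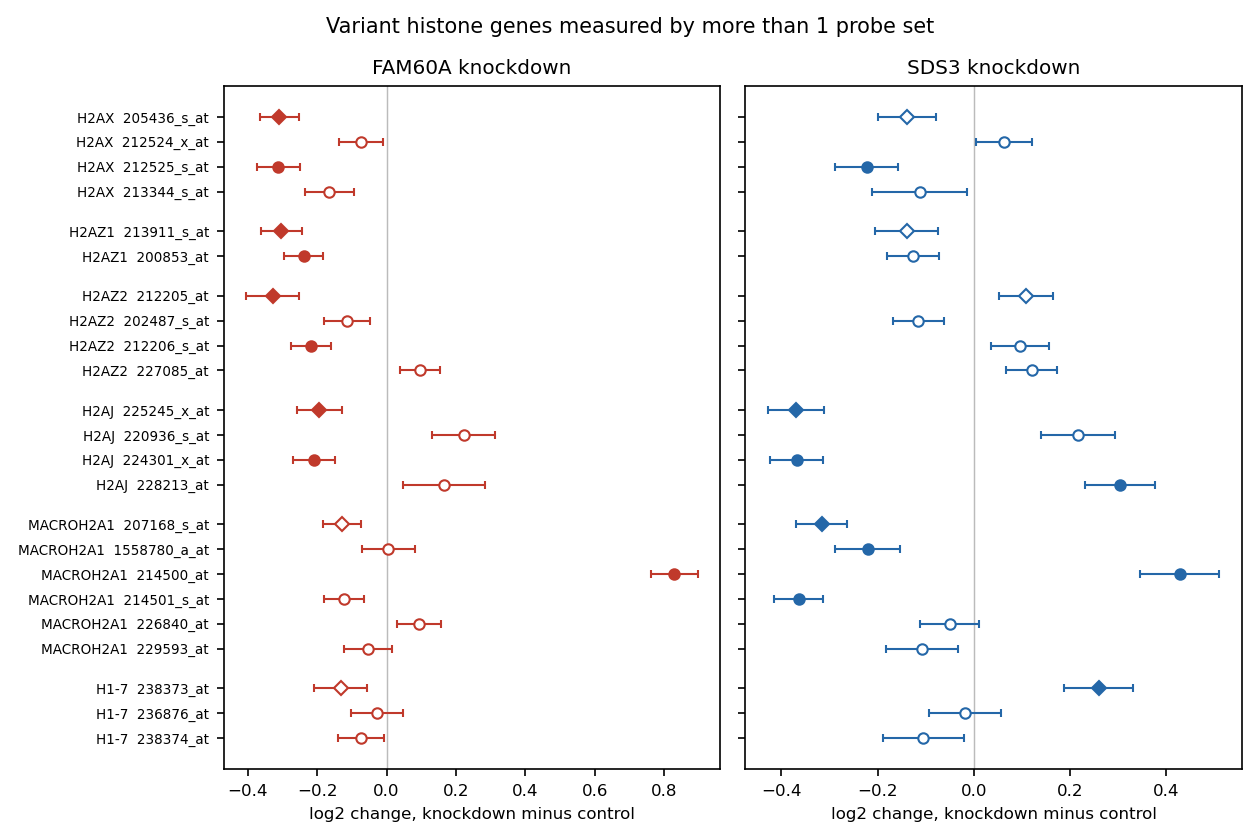
Log2 change ± SE (knockdown minus control, n = 3 a group) of every probe set past the level filter for the variant genes with more than 1 probe set; diamonds mark the brightest probe set and filled symbols passed over all probe sets. MACROH2A1 214500_at lies at 0.83 and 0.43 in the FAM60A and SDS3 knockdowns, apart from the other MACROH2A1 probe sets, and H2AJ splits into probe sets below and above 0.

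The knockdowns were then compared with each other by the difference between their changes (SDS3 change minus FAM60A change), fitted over all 12 arrays. Of the 52 coding genes, 14 had a lower and 4 a higher change in the SDS3 knockdown, where 15.3% of all genes were lower and 9.99% higher. The lower ones were 9 of 13 H2B genes, 2 H2A genes, H1-2, H4C8 and the variant H1-10. Among these H2B genes, H2BC12L, H2BC5, H2BC6, H2BC9 and H2BC21 were read by _s_at or _x_at probe sets. The higher ones were H2AZ2, H1-7, H3C11 and MACROH2A2. All SDS3 arrays of H2BC17 and H3C11 lie under log2 5, and both genes entered the test through the FAM60A arrays, so their SDS3 changes are read near background. The median difference was -0.35 for H2B genes, -0.11 for all replication-type genes and 0.17 for variant genes, against 0.01 for all genes tested.

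H2AC6 had the widest difference, at -0.82 ± 0.08 (SE, limma adjusted p 6.46e-06), since it rose by 0.63 in one knockdown and changed by -0.19 in the other. The difference was -0.69 ± 0.10 (limma adjusted p 0.000134) for H1-2, -0.65 ± 0.11 (limma adjusted p 0.000513) for H4C8 and -0.53 ± 0.07 (limma adjusted p 7.67e-05) for H2BC3. H2BC3 is the replication-type gene that rose in the FAM60A knockdown and fell in the SDS3 knockdown with both calls held when any single array was left out, though its rise did not pass with the arrays scaled on the bacterial control probe sets (0.22, adjusted p 0.261). Of the 18 differences, those of H2BC21, H2BC4, H2BC9, H3C11, H1-10 and MACROH2A2 were lost with some single arrays left out. With the arrays scaled on the bacterial control probe sets, 0 coding histone genes had a higher and 15 a lower change. The lower change of H1-10 did not pass there (limma adjusted p 0.0764). Shares of all genes were not counted for the scaled difference, so these counts only describe the members.

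**Figure D4:**
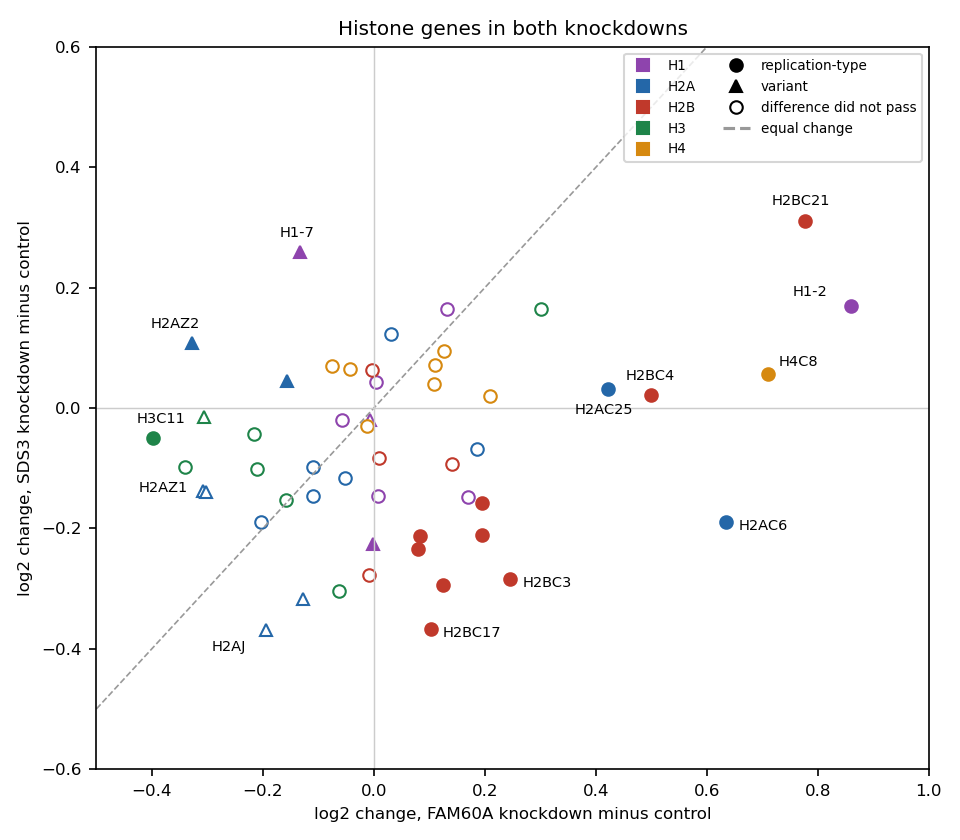
Log2 change of each tested histone gene in the SDS3 knockdown against that in the FAM60A knockdown (n = 3 a group), coloured by family; circles are replication-type genes, triangles variant genes, and filled symbols have a passing difference between the changes. Most filled H2B points lie below the dashed line of equal change, with H1-2 at 0.86 and 0.17 and H2AC6 at 0.63 and -0.19.

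Of the replication-type genes, 5 passed in both knockdowns (H1-2, H2AC6, H2BC21, H2BC3 and H3C6) and 21 in neither. The shares of all genes that passed in both or in neither were not counted, so these numbers only describe the members. The 21 included every H4 gene tested but H4C8, and H1-1, H1-3, H1-4 and H1-6. Their changes ran from -0.20 to 0.21 in the FAM60A knockdown and from -0.19 to 0.16 in the SDS3 knockdown. The median control log2 signal of all replication-type genes was 7.44 in the FAM60A experiment, where the array median was 7.56. Of the 19 tested genes above the array median 9 rose and 2 fell after FAM60A knockdown, and of the 23 below it 2 rose and 2 fell. After SDS3 knockdown 3 of the 20 above that experiment's array median rose and 5 fell, and of the 22 below it 0 rose and 3 fell. Shares of all genes above and below the array median were not counted, so these splits are not read as particular to histone genes. RMA narrows changes near background, so small changes of the weak genes could be missed with 3 arrays a group.

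Grouped by neighbourhood in RefSeq, with a new group after a gap of 500 kb, the largest group was the chromosome 6 run from H2BC1 to H4C8. Of its 23 tested genes 6 rose and 2 fell after FAM60A knockdown, and 2 rose and 6 fell after SDS3 knockdown, where 19.2% and 17.6% of all genes rose and fell after FAM60A and 15.8% and 18.8% after SDS3 knockdown. In the second large chromosome 6 group, from H2BC13 to H2BC17, 1 of 12 genes rose and 1 fell after FAM60A knockdown, and 0 rose and 1 fell after SDS3 knockdown. Outside chromosome 6, H2BC21 and H2AC25 on chromosome 1 and H2BC12L on chromosome 21 rose after FAM60A knockdown, while H3-4 on chromosome 1 fell. Among divergent gene pairs with both genes tested, H2BC4 with H2AC6 was the one in which both genes passed in a knockdown. The pairs H2AC14 with H2BC14 and H2AC15 with H2BC15 had no passing gene, and of H2AC17 with H2BC17 only H2BC17 passed, in the SDS3 knockdown.

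The other genes of the histone supply pathway were read from lists of known components. As deposited, the shares of all genes to read them against are 19.2% higher and 17.6% lower after FAM60A knockdown and 15.8% and 18.8% after SDS3 knockdown. The scaling on bacterial control probe sets moved the split of their calls, which is given with each list. Under it, 10.3% of all genes rose and 9.74% fell after FAM60A knockdown, and 4.56% rose and 38.4% fell after SDS3 knockdown. Of 17 tested genes for transcription of replication-type histone genes, 1 rose and 3 fell after FAM60A knockdown (median -0.02) and 3 rose and 3 fell after SDS3 knockdown (median 0.03). Under the control probe set scaling, 0 rose and 3 fell, and 1 rose and 6 fell. CCNA2, the cyclin A of S phase, fell in both, by 0.62 and 0.91 on the log2 scale. YY1, a zinc finger factor, changed by -0.45 (limma adjusted p 0.00118) after FAM60A knockdown, and by -0.23 with probe sets of shared sequence left out. CDK2, the kinase partner of cyclin A, changed by -0.37 after FAM60A and by 0.19 after SDS3 knockdown, the second of which turned to -0.023 under that scaling. TBP, the TATA-binding protein, changed by -0.83 and NFYA, a subunit of the CCAAT-binding factor, by 0.61 in the SDS3 knockdown, both past the threshold.

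Of 29 genes for 3′ end processing, translation and decay of histone mRNA, 4 rose and 14 fell after FAM60A knockdown (median -0.13) and 5 rose and 9 fell after SDS3 knockdown (median -0.04). Under the control probe set scaling, 1 rose and 9 fell, and 0 rose and 14 fell. LSM11, a U7 snRNP subunit that acts in cleavage of histone pre-mRNA, changed by -0.49 after FAM60A knockdown, where CPSF2 and CSTF2, factors of pre-mRNA cleavage, each changed by -0.42. MIF4GD, which links the stem-loop binding protein to translation, changed by -0.55, CSTF2 by -0.51 and FIP1L1, a polyadenylation factor, by -0.51 after SDS3 knockdown. With probe sets of shared sequence left out, FIP1L1 changed by -0.05 after SDS3 knockdown (limma adjusted p 0.749). SLBP, the stem-loop binding protein itself, was picked after its values were seen: it changed by -0.32 (limma adjusted p 0.000832) after FAM60A and by 0.21 (limma adjusted p 0.0124) after SDS3 knockdown, the second of which became -0.0043 under that scaling.

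Of 36 genes for histone chaperones and deposition, 4 rose and 14 fell after FAM60A knockdown (median -0.12) and 4 rose and 7 fell after SDS3 knockdown (median -0.06), the last close to the share of all genes that fell. Under the control probe set scaling, 1 rose and 5 fell, and 1 rose and 20 fell. ASF1A, a chaperone of H3 and H4, read 11.56, 11.58 and 11.49 in FAM60A controls and 10.53, 10.62 and 10.55 in knockdown samples, a change of -0.98 ± 0.06 (SE, limma adjusted p 3.98e-07), and it changed by -0.65 after SDS3 knockdown. With probe sets of shared sequence left out, ASF1A changed by -0.28 (limma adjusted p 0.0366) and by -0.03 (limma adjusted p 0.838). ATRX, which takes part in H3.3 deposition, rose in both, by 0.51 and 0.56. HIRA, another H3.3 chaperone subunit, changed by -0.48 after FAM60A knockdown, and ANP32E, a chaperone that removes H2A.Z, by -0.32 after FAM60A and 0.42 after SDS3 knockdown, or 0.20 (adjusted p 0.143) under that scaling.

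Of 41 genes for DNA replication, 2 rose and 22 fell after FAM60A knockdown (median -0.21) and 3 rose and 17 fell after SDS3 knockdown (median -0.13). Under the control probe set scaling, 0 rose and 14 fell, and 0 rose and 27 fell. After FAM60A knockdown the largest changes were those of GINS1 and MCM2, parts of the replicative helicase, at -0.76 and -0.62, and of the primase gene PRIM2 at -0.61. After SDS3 knockdown they were those of the licensing factor gene CDC6 at -0.79, GINS3 at -0.78 and the DNA polymerase alpha gene POLA2 at -0.77, or -0.22 (limma adjusted p 0.0962) with probe sets of shared sequence left out. The rises of replication-type histone genes after FAM60A knockdown thus stood beside falls of 22 of 41 replication genes in the same arrays, and the part of cell cycle phase in the histone values was not tested.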

How the data were processed

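The authors deposited probe set intensity on a linear scale for 12 1-colour Affymetrix arrays, processed with RMA per the submitters' processing notes, which give no version. Joint or separate normalization of the experiments is not stated there. Log2 of the deposited values was taken. Groups came from sample titles. Of 54675 probe sets, 41097 had 1 gene symbol in the platform annotation, 1801 several and 11777 none listed; symbols were updated through RefSeq (41043 matched). A gene was its brightest probe set, tested if at least 3 of 12 arrays reached log2 5. Each knockdown was fitted with its 6 arrays in limma 3.58.1 (R 4.3.3, lmFit and eBayes), Benjamini-Hochberg adjusted over 18621 genes at 0.05; the difference between knockdowns came from 1 fit of 12 arrays, and probe sets from a fit of all 37388. Changes are log2, knockdown minus control, ± SE. Values had been assumed to be log2 in advance and were linear. Fits were tested on simulated data. The number of arrays limits the precision.

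The members, lists and alternatives were chosen with earlier results of these data known. Genes were named by rule: per knockdown the 6 largest passing rises and falls, every variant gene, the 4 largest differences, both targets and up to 3 genes per list. Promoter sequences are RefSeq's. Same-numbered samples were not paired, with correlations of their deviations between -0.12 and 0.03. Alternatives covered the level filter, probe set choice, centring, quantile and control probe set scaling, the joint fit, limma settings, a replicate block and leaving out each array.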

Additional observations from a re-analysis of the deposited data

Results flagged for a closer look

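A difference between the 2 knockdowns' changes, tested as a contrast in limma over all 12 arrays, was found for 18 histone genes. Values are SDS3 change minus FAM60A change on the log2 scale. Among H2B genes it was -0.53 for H2BC3, -0.48 for H2BC4, -0.47 for H2BC17, -0.47 for H2BC21, -0.42 for H2BC5, -0.41 for H2BC12L, -0.35 for H2BC12, -0.31 for H2BC6 and -0.30 for H2BC9. It was -0.82 for H2AC6, -0.39 for H2AC25, -0.69 for H1-2, -0.65 for H4C8 and -0.22 for H1-10. It was positive for H2AZ2 at 0.44, H1-7 at 0.39, H3C11 at 0.35 and MACROH2A2 at 0.20.

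H2BC17 and H3C11 had all SDS3 values under the level filter, at log2 5, and were tested through the FAM60A arrays. H2BC12L, H2BC5, H2BC6, H2BC9, H2BC21, H2AC6 and H1-10 were read by probe sets of possibly shared sequence. None of these genes had a probe set of unshared sequence, so their calls were not tested without shared ones. Left out singly, some arrays ended the calls of H2BC21 (adjusted p up to 0.0776), H2BC4 (up to 0.0844), H2BC9 (up to 0.0809), H3C11 (up to 0.0795), H1-10 (up to 0.0892) and MACROH2A2 (up to 0.104). The other 12 differences passed in all 12 fits with an array left out.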

How the results depend on the processing

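Counts of coding histone genes moved by over 1.5 times in these cases. Shares of all genes are given above for control probe set scaling in each knockdown. For the other settings, and for the scaled differences and further probe sets, no such shares are given. The counts therefore only describe the members. FAM60A rises (11) became 6 with control probe set scaling and 4 at 1.5-fold or more, and ran from 8 to 14 with an array left out. FAM60A falls (9) became 5 at an adjusted p under 0.01 and 0 at 1.5-fold, and ran from 5 to 9. SDS3 rises (4) became 0 with control probe set scaling, 2 in the joint fit of 12 arrays, 2 with the replicate block, 1 at 0.01 and 0 at 1.5-fold, and ran from 1 to 3. They were 1 without knockdown 1 and 2 without any other array except control 1. SDS3 falls (11) became 28, 6 and 0 under control probe set scaling, 0.01 and 1.5-fold, and ran from 8 to 10. Higher differences (4) became 0, 2 with the block, 1 at 0.01 and 0 at 1.5-fold, and ran from 2 to 4, with 2 without FAM60A control 1, knockdown 1 or knockdown 3, or SDS3 control 1, control 3 or knockdown 2. Lower differences (14) became 8 at 0.01 and 3 at 1.5-fold, and ran from 10 to 16. Further probe sets lower after FAM60A knockdown (4) became 1 under control probe set scaling and ran from 3 to 4. After SDS3 knockdown those higher (2) became 0, and those lower (5) became 11 and, with the block, 3, and ran from 3 to 4. Signs turned with that scaling for H1-2 (-0.048), H3C6 (-0.053) and CDK2 (-0.023) in the SDS3 knockdown. With probe sets of shared sequence left out they turned for H2AJ (0.17 and 0.30 after FAM60A and SDS3 knockdown), MACROH2A1 (0.83 and 0.43) and FIP1L1 (0.27 after FAM60A). Genes read only by probe sets of shared sequence kept them in that setting. The SDS3 median of variant genes turned to 0.02 in that setting. The cause was not tested. The replicate number did not pair samples; with it as a block, calls over all genes went from 6855 to 6239 (FAM60A) and from 6439 to 5848 (SDS3). Over the named genes, the histone genes called and the class medians, 2123 of 2358 values were counted as the same. For genes this means that direction and side of the threshold were kept. Of the rest, 193 lost the call, 19 gained one, 8 turned in sign and 15 were counted as moved. A sign turn without a call on either side counted as kept. The number of arrays, and signal near background, limit what small changes can be seen.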
